A study of Mus musculus with 4 samples.

Results

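The genes described here are 35 genes of glucose uptake, glycolysis and the hypoxia response, out of 32285 genes counted in single cells from mouse lung and synovium. They were listed by name and role, and no measured value enters the list. All 35 were found among the gene symbols of the count tables, and each was counted in the data, from 846 molecules for Eno2 to 202064 for Gapdh over all barcodes. Lung and synovium came from 4-month-old female TNF-Tg mice (TNF+), which carry the human TNF gene on a C57BL/6 background, and from wild-type littermates without it (TNF-). Tissue of 3 to 5 mice per genotype was pooled for lung and of 5 to 10 for synovium, so each of the 4 groups (a TNF- and a TNF+ group per tissue) was represented by 1 library. The human transgene is not part of the mouse reference, and its own expression was not measured. With 1 library per group no difference below has a replicate check, no p-value is given, and "higher" and "lower" compare 2 libraries.

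Glycolysis splits glucose into pyruvate. Glucose enters through carriers such as Slc2a1 and Slc2a3, hexokinases trap it by phosphorylation, phosphofructokinase commits it to breakdown, and the lower enzymes from Gapdh to Pkm harvest ATP. Lactate dehydrogenase then turns pyruvate into lactate, which leaves the cell through Slc16a1 or Slc16a3. When oxygen falls, the prolyl hydroxylases Egln1 and Egln3 stop marking the factors Hif1a and Epas1 (HIF-2α) for destruction. These HIF factors, mainly Hif1a for glycolysis and Bnip3, switch on most glycolytic genes together with Bnip3, Ndrg1, Ddit4, Ankrd37, P4ha1 and Adm. Inflamed joint tissue is known for low oxygen and high lactate, and activated macrophages are known for strong glycolysis. HIF factors are controlled mainly at the protein level, which RNA counts do not show.

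Each count is a unique molecular identifier (UMI), a tag at the 3′ end of 1 transcript, so transcript length does not enter. Levels are CPM, the UMIs of a gene per 1000000 UMIs of the same cells, ratios are TNF+ over TNF- on the log2 scale, and 95% intervals cover counting error only. The 4 libraries held 4246 to 11243 barcodes, of which 3152 to 9174 were kept as cells, at medians of 7137 to 12492 UMIs, and pairs of libraries shared 5 to 21 barcodes. More than 20% mitochondrial UMIs were found in 3.78% of TNF- and in 17.6% of TNF+ synovial barcodes. Cells were clustered within each tissue, and each class name below stands for cells like that class. In 10 of 28 synovial and 13 of 38 lung clusters over 90% of the cells came from 1 library. The tissues were digested with different enzymes, so tissue and enzyme cannot be told apart, and genotypes were compared only within a tissue. A ratio was counted for a gene with at least 20 UMIs over both libraries, and "2-fold" means a log2 ratio of at least 1 in size.

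In the synovium the 35 genes together took 2561 CPM in the TNF- library and 6034 CPM in the TNF+ library. The log2 ratio was 1.24 (95% interval 1.23 to 1.25). By gene, 21 of the 35 were at least 2-fold higher in the TNF+ library and 2 were at least 2-fold lower, where 11.8% of all counted genes were that much higher and 21.9% that much lower. Mesenchyme gave 63.6% and myeloid cells 14.6% of the UMIs of the 35 genes in the TNF- synovium, and 14.7% and 67.4% in the TNF+ synovium. In the lung the same sum was 2927 CPM against 2584 CPM in the TNF- and the TNF+ library, with 1 gene at least 2-fold higher and 4 lower (5.79% and 25.5% of all genes). Without Epas1, the endothelial HIF factor, the lung sum turned to 2089 CPM against 2549 CPM (log2 ratio 0.29, 0.28 to 0.30), an alternative added after the data were seen. The sum was higher in the TNF+ library in each of the 5 synovial classes with at least 50 cells in both libraries. In the lung it was lower in myeloid cells, endothelium, epithelium and platelets and slightly higher in lymphocytes and mesenchyme, and without Epas1 it was higher in endothelium too.

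**Figure D1:**
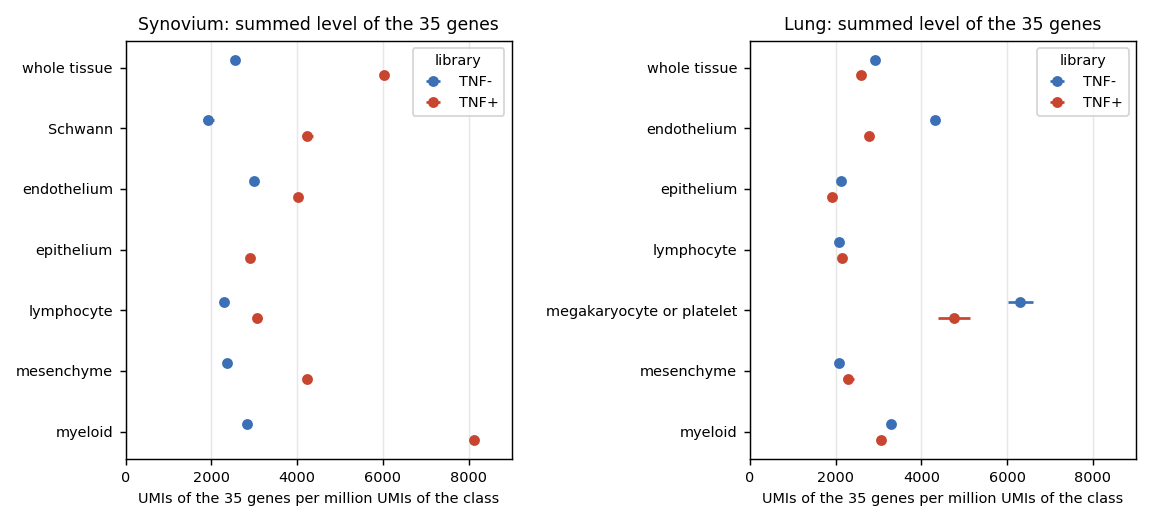
Summed level of the 35 genes (CPM of the class, linear axis from 0) in each cell class of synovium and lung. Blue points are the TNF- library, red points the TNF+ library, and bars, mostly shorter than the points, are 95% counting intervals. The TNF+ synovial myeloid class stands at 8117 and its TNF- counterpart at 2823, while the lung myeloid class stands at 3302 in the TNF- and 3060 in the TNF+ library.

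Synovial myeloid cells showed the widest gap. Here the sum was 2823 CPM in 626 TNF- cells and 8117 CPM in 1223 TNF+ cells, a log2 ratio of 1.52 (1.51 to 1.54). Per cell this was 45.5 and 110.0 UMIs of the 35 genes, and the median cell gave them 0.267% and 0.689% of its UMIs. Of the 35 genes, 21 were at least 2-fold higher, against 9.35% of all genes in these cells, and 1 was at least 2-fold lower, against 20%. The median log2 ratio was 1.21 over the 35 genes and -0.14 over all genes. The lower enzymes of glycolysis, from Gapdh to Pkm, summed to 1149 CPM against 3893 CPM in the TNF- and the TNF+ cells, while the 3 hexokinases stood at 204 and 255 CPM.

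Bnip3, a mitochondrial protein of mitophagy and a classic hypoxia marker, stood at 5.65 CPM against 116 CPM in TNF- and TNF+ myeloid cells. Its log2 ratio of 4.36 (3.98 to 4.77) was the largest of the 35 in this class. Egln3, the oxygen-sensing prolyl hydroxylase that is itself raised by HIF, stood at 1.09 and 20.6 CPM (log2 ratio 4.24, 3.38 to 5.26), from 11 and 342 UMIs. These 2 oxygen-response genes were rare in the TNF- cells and clearly counted in the TNF+ cells. Ldhb, the lactate dehydrogenase subunit that favours pyruvate, was measured at 3.47 and 22.6 CPM (log2 ratio 2.71, 2.20 to 3.25). Pgam1, phosphoglycerate mutase, was at 113 and 613 CPM (log2 ratio 2.44, 2.35 to 2.53). The main aldolase gene Aldoa was at 207 and 1093 CPM (log2 ratio 2.40, 2.34 to 2.47). Unlike Bnip3 and Egln3, Pgam1 and Aldoa were well counted in both libraries.

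Gapdh, the most abundant of the 35 in this class, was at 508 CPM against 1547 CPM in the TNF- and the TNF+ cells (log2 ratio 1.61). Pkm, which makes pyruvate, was at 283 and 921 CPM (log2 ratio 1.70), and Ldha, which turns it into lactate, at 208 and 719 CPM (log2 ratio 1.79). The lactate exporter Slc16a3 was at 114 and 294 CPM. These 4 genes of the end of the route were thus all at least 2-fold higher in the TNF+ library. At the entry of the route, Slc2a1 was at 50 and 127 CPM (log2 ratio 1.34), and the transcript of the factor Hif1a was at 105 and 331 CPM (log2 ratio 1.65). Some members stood apart: the phosphofructokinase Pfkp was at 200.1 and 114 CPM (log2 ratio -0.81), the PFKFB enzymes Pfkfb3 and Pfkfb4 had log2 ratios of -0.56 and -0.37, and Epas1 one of -0.45. Another 10 members (Pfkl, Tpi1, Pgk1, Eno1, Slc16a1, Pdk1, Egln1, Ndrg1, Ankrd37 and P4ha1) had log2 ratios from 1.0 to 2.16, and Hk1, Hk2, Hk3, Gpi1, Pfkm, Aldoc, Eno2, Ddit4 and Adm ratios from 0.076 to 0.91.

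Slc2a3, the high-affinity glucose carrier, was the 1 member at least 2-fold lower, at 47.6 CPM against 5.43 CPM in TNF- and TNF+ synovial myeloid cells (log2 ratio -3.13, -3.47 to -2.80). Its level followed the cell type: in the TNF- library it was at 316 CPM in neutrophils, 57.2 CPM in dendritic cells and 4.12 CPM in macrophages or monocytes. In the TNF+ library these 3 types were at 162, 26 and 2.45 CPM. Slc2a3 was thus lower in TNF+ dendritic cells and in TNF+ neutrophils, the latter from only 27 TNF- and 23 TNF+ cells. In macrophages or monocytes the 2 values rested on few UMIs, and no direction is held there. Macrophages or monocytes, in which it was lowest, were 227 of 626 TNF- and 1113 of 1223 TNF+ myeloid cells.

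The make-up of the class differed between the libraries. Most TNF- myeloid cells (372 of 626) lay in cluster 6, dendritic cells led by Cd209a and Ccl22, and most TNF+ myeloid cells (853 of 1223) lay in cluster 3, macrophages led by Trem2 and with Spp1 among their top genes, which held only 14 TNF- cells. Cluster 3 made up 27.1% of the TNF+ synovial cells, 39.5% of their UMIs and 59.8% of their UMIs of the 35 genes, at 9149 CPM. The levels of the clusters with at least 20 cells in both libraries (6, 9, 21 and 26) were also averaged with the same weights in both. The log2 ratio of the sum was then 0.52 in place of 1.52, and 4 genes in place of 21 were at least 2-fold higher. In these clusters taken singly 6.51% to 8.82% of all counted genes were that much higher, and no share was computed for the average. Without the clusters with over 90% TNF+ cells the log2 ratio of the sum was 0.62, with 6 genes, also without such a share. Bnip3 then had log2 ratios of 1.60 and 1.47, Egln3 1.29 and 1.49, Aldoa 1.0 and 1.15, and Pgam1 0.84 and 0.94. Ldhb turned to -0.36 under the first and stayed at 0.80 under the second. The average over clusters also turned the sign of Eno1, Egln1, Pdk1 and Ankrd37, which were at least 2-fold higher over the whole class, and both of these alternatives were added after the data were seen.

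Cluster 3 can be set beside cluster 9, macrophages or monocytes led by Cd300e and Treml4, which held 138 TNF- and 229 TNF+ cells. Bnip3 was at 143 CPM in the TNF+ cells of cluster 3, and in cluster 9 at 3.98 CPM against 13.2 CPM in TNF- and TNF+ cells. Egln3 was at 25.4 CPM in cluster 3 and at 2.27 and 2.30 CPM in cluster 9. Both genes were thus higher in cluster 3 than in either library's cells of cluster 9. Of the 35 genes, 21 stood in ascending order from the TNF- to the TNF+ cells of cluster 9 and on to cluster 3, among them 12 of the 16 hexokinase, upper and lower glycolysis genes and 0 of the 2 PFKFB genes. No minimum count was set for this order. The share of all genes in the same order was not computed, so these counts have no background to be read against. Aldoa was at 260.2 CPM in TNF- cells of cluster 9, 513 CPM in its TNF+ cells and 1267 CPM in cluster 3. Gapdh had 501, 853 and 1744 CPM and Pgam1 148, 234 and 720.1 CPM in the same order. Slc16a3 was not in that order, at 328 and 511 CPM in cluster 9 and at 283 CPM in cluster 3. Cluster 3 was defined from the expression of the same cells, so these values describe it and test nothing.

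**Figure D2:**
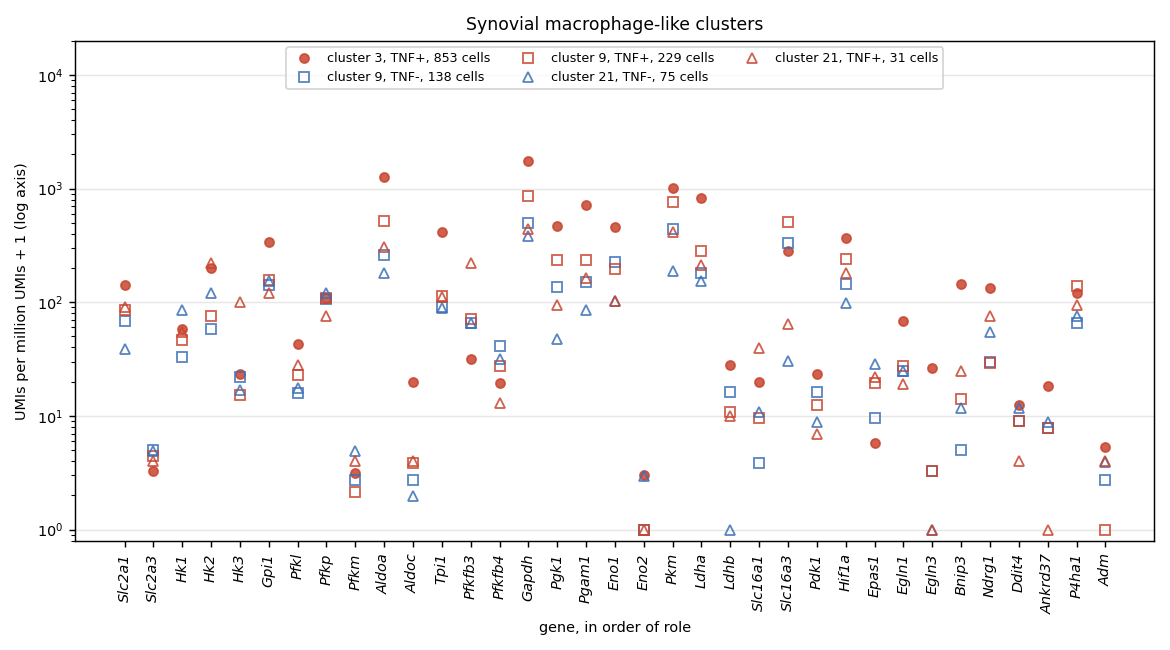
Level of each of the 35 genes (CPM of the cluster plus 1, log axis) in 3 synovial macrophage-like clusters. Filled red circles are the TNF+ cells of cluster 3, squares cluster 9 and triangles cluster 21, with TNF- in blue and TNF+ in red. Bnip3 at 143 and Egln3 at 25.4 in cluster 3 stand well above the other points of their columns, whereas Slc16a3 is highest in the TNF+ cells of cluster 9.

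The letters that HIF factors can bind occur in the DNA upstream of most of these genes. The letters searched were ACGTG and GCGTG on either strand (CACGT and CACGC on the opposite strand), in the 250 bases before each RefSeq start on GRCm38.p6. Of the 35 genes, 32 had a promoter listed, and 29 of these held the letters in at least 1 promoter (90.6%), against 41.5% of 27025 genes. By promoter it was 37 of 45 (82.2%), against 12679 of 32851 (38.6%). All the strings searched hold CG, and the genes compared were not matched for CG content. The stretches printed are those of Bnip3, Egln3, Ldhb and Pgam1, which had the largest log2 ratios in synovial myeloid cells and 1 listed promoter each, while Pfkp, lower in TNF+ myeloid cells, and Tpi1, higher and without a match, are shown for contrast. Each run is the stretch of that window outside annotated exons, from 5′ to 3′ along the gene, and capitals mark the letters searched, which merge where matches on both strands overlap.
Bnip3 (chr7:138909520-138909756, minus strand): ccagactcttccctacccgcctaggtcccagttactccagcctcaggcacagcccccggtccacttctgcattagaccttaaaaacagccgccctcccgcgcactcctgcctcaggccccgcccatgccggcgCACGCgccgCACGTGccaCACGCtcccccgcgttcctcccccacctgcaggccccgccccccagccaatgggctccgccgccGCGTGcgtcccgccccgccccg
Egln3 (chr12:54203875-54204124, minus strand): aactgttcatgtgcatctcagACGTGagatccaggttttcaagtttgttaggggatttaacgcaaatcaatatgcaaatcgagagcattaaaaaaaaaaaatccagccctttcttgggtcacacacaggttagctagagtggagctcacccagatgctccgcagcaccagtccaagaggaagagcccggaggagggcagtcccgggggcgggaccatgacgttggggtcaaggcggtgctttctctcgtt
Ldhb (chr6:142507958-142508207, minus strand): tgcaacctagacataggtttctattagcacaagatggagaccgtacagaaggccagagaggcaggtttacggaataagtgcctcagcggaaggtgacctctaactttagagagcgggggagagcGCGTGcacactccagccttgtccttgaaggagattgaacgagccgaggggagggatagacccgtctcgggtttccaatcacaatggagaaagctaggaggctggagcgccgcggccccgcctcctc
Pgam1 (chr19:41911621-41911870, plus strand): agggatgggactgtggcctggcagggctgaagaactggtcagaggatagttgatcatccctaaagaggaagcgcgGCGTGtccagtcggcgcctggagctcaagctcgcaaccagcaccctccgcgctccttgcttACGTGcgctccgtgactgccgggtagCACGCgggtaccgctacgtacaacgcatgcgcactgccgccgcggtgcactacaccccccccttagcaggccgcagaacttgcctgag
Pfkp (chr13:6648778-6649021, minus strand): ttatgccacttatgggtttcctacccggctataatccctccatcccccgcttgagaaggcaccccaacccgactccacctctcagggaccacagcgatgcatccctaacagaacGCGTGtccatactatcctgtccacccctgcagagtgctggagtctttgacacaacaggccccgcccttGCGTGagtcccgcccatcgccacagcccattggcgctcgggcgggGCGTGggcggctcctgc
Tpi1 (chr6:124814297-124814408, minus strand): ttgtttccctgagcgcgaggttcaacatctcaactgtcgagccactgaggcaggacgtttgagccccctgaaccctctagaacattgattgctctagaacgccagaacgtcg
The Bnip3 stretch held 5 matches, Pgam1 and Pfkp 3 each, Egln3 and Ldhb 1 each and Tpi1 0 in its 112 bases. Pfkp, with 3 matches, was lower in TNF+ myeloid cells (log2 ratio -0.81), and Tpi1, with none in this window, was higher (log2 ratio 2.16). A match is a description of the sequence and not a site of binding.

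In synovial mesenchyme, fibroblasts and mural cells, the 35 genes summed to 2359 CPM in 3807 TNF- cells and 4239 CPM in 687 TNF+ cells, a log2 ratio of 0.85 (0.83 to 0.86). Of 34 counted genes, 15 were at least 2-fold higher and 1 at least 2-fold lower, against 9.28% and 21.2% of all genes. The median log2 ratio was 0.96 over these genes and -0.27 over all genes. The exporter Slc16a3 was at 2.85 CPM against 27.5 CPM in TNF- and TNF+ mesenchyme (log2 ratio 3.27, 2.95 to 3.59). Egln3 was at 3.15 and 20.8 CPM (log2 ratio 2.72, 2.39 to 3.05). Both were rare in the TNF- fibroblast-like cells and of moderate level in the TNF+ cells. Ndrg1, a stress gene raised by low oxygen, was at 119 and 410.0 CPM (log2 ratio 1.79), and Ddit4, which restrains the growth kinase mTORC1, at 17.6 and 57.7 CPM (log2 ratio 1.71). The transcript of Hif1a was at 74 and 245 CPM (log2 ratio 1.73), and Pfkl, a phosphofructokinase, at 5.87 and 20.4 CPM (log2 ratio 1.80).

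Among the pathway's representatives, Pkm was at 109 and 289.6 CPM in TNF- and TNF+ mesenchyme (log2 ratio 1.41) and Ldha at 169 and 363 CPM (1.10). Slc2a1 was at 22.1 and 50.2 CPM (1.18) and Gapdh at 248 and 482 CPM (0.96). Aldoa, which stood 2.40 apart on the log2 scale in myeloid cells, was here at 225 and 299 CPM (0.41). Hk2, the hexokinase with the highest level in mesenchyme of both libraries, was at 363 and 698 CPM (0.94). The 1 member at least 2-fold lower was Adm, the vasodilator peptide adrenomedullin, at 115 and 48.2 CPM (log2 ratio -1.25, -1.42 to -1.09). P4ha1, a collagen prolyl hydroxylase, was at 173 and 124 CPM (-0.49). Mesenchyme thus held both higher members, such as Slc16a3, and lower members, such as Adm, of the HIF response.

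Most TNF- mesenchymal cells lay in fibroblast clusters 1, 2 and 5, and the TNF+ cells mainly in clusters 8, 19 and 2. Cluster 19, led by Saa3, Cxcl5 and Mmp13, had 156 TNF+ and 0 TNF- cells and stood at 5326 CPM. Averaged over the shared clusters (1, 2, 8, 10, 11 and 20), the log2 ratio of the sum was 0.49. At least 2-fold higher were 3 genes, Slc16a3 (1.23), Hk2 (1.48) and Bnip3 (1.24), named after their values were seen. In these clusters taken singly 4.78% to 10.1% of all counted genes were that much higher, and no share was computed for the average. Without the clusters with over 90% TNF+ cells the log2 ratio of the sum was 0.55, with 8 genes, also without such a share. Egln3 then had log2 ratios of 0.48 and 0.87, Pfkl 0.13 and 1.36, and Hif1a 0.90 and 1.15. Eno1 turned to -0.17 in the average over clusters.

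Synovial endothelium held 2999.9 CPM of the 35 genes in 710 TNF- cells and 4025 CPM in 546 TNF+ cells (log2 ratio 0.42, 0.39 to 0.46). At least 2-fold higher were 7 of 32 counted genes and at least 2-fold lower 0, against 7.48% and 10.2% of all genes. The 7 were Slc2a3, Pgk1, Ldhb, Hif1a, Egln3, Bnip3 and Ankrd37. Ankrd37, a small ankyrin-repeat protein known as a HIF target, was at 11.1 and 37 CPM (log2 ratio 1.73, 1.21 to 2.28). Bnip3 was at 18.7 and 56.2 CPM (1.59, 1.18 to 2.01), and Pgk1, the first ATP-yielding enzyme of glycolysis, at 34.3 and 80.6 CPM (1.23, 0.93 to 1.55). Hif1a was at 74.7 and 152 CPM (1.03) and Gapdh at 224 and 426 CPM (0.93). The lactate carrier Slc16a1 went the other way, at 36.9 and 19.1 CPM (-0.95, -1.37 to -0.54). Epas1 was the most abundant member in endothelium of both libraries, at 893 and 1024 CPM (0.20), and Pfkfb3, the enzyme that drives glycolysis in growing vessels, was at 159 and 273 CPM (0.78). The count of 7 was 13 when each library was clustered by itself and 4 with each cell weighted equally, with a minimum of 100 UMIs, or with cells thinned to 1000 UMIs.

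Pkm, Ldha and Slc2a1 were each under 2-fold in synovial endothelium, with log2 ratios of 0.79, 0.76 and 0.36. In lymphocytes of the synovium the sum was 2287 CPM in 331 TNF- and 3072 CPM in 183 TNF+ cells (log2 ratio 0.43), although TNF+ lymphocytes had fewer UMIs of the 35 genes per cell (27.6 and 19.8). Hif1a was at 97.6 and 262 CPM (1.43, 1.21 to 1.64) and Epas1 at 10.5 and 22.1 CPM (1.07). On the lower side was Slc2a3, at 80.3 and 31.4 CPM (-1.36, -1.89 to -0.86). Gapdh and Ldha both had a log2 ratio of 0.66 there, and 2 of 30 counted genes, Hif1a and Epas1, were at least 2-fold higher and 2, Slc2a3 and Adm, lower, against 7.85% and 12.9% of all genes. Cluster 18, T-cell-like and led by Il5, held 140 TNF- and 19 TNF+ lymphocytes, and cluster 12, led by Gzma, 129 and 128. Cluster 22, B or plasma cells, held 62 TNF- and 36 TNF+ cells. Of these clusters, 12 and 22 had at least 20 cells in both libraries. Averaged over clusters 12 and 22, the ratios were 1.12 for Hif1a, 1.19 for Epas1, -1.53 for Slc2a3 and -0.22 for Adm, which was then under 2-fold. Endothelium, in which Epas1 was highest, was 11.5% of TNF- and 17.3% of TNF+ synovial cells. The part of free RNA from endothelium in the Epas1 values of lymphocytes was not tested.

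Schwann-like cells, which wrap peripheral nerve fibres, gave 1927 CPM in 68 TNF- and 4239 CPM in 234 TNF+ cells (log2 ratio 1.14, 1.03 to 1.25). Of 26 counted genes 10 were at least 2-fold higher and 0 lower, against 12% and 13.1% of all genes. Ndrg1, needed to maintain myelin, was at 387 and 1399.8 CPM (1.86, 1.62 to 2.10), the highest level of Ndrg1 in any synovial class. Ldhb was at 184 and 410.1 CPM (1.16). Pdk1, the kinase that closes pyruvate off from the mitochondria, had 0 and 30 UMIs and was at least 2.12 higher on the log2 scale, taking 3 UMIs as the floor. With cells thinned to 1000 UMIs it had 0 and 6 UMIs, for which the same floor gives -0.66, so no direction is held at that depth. Most TNF- cells lay in cluster 24 (53 cells) and most TNF+ cells in cluster 13 (215 cells, against 15 TNF- cells), and the sum was 1599 and 2686 CPM in TNF- and TNF+ cells of cluster 24 and 3404 and 4411 CPM in those of cluster 13. Epithelium-like cells numbered 179 in the TNF+ and 3 in the TNF- synovium, so only the TNF+ library gives a level, and there Slc2a1 was at 189 CPM and Aldoc, the minor aldolase, at 65.2 CPM, the highest levels of these genes in that library.

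**Figure D3:**
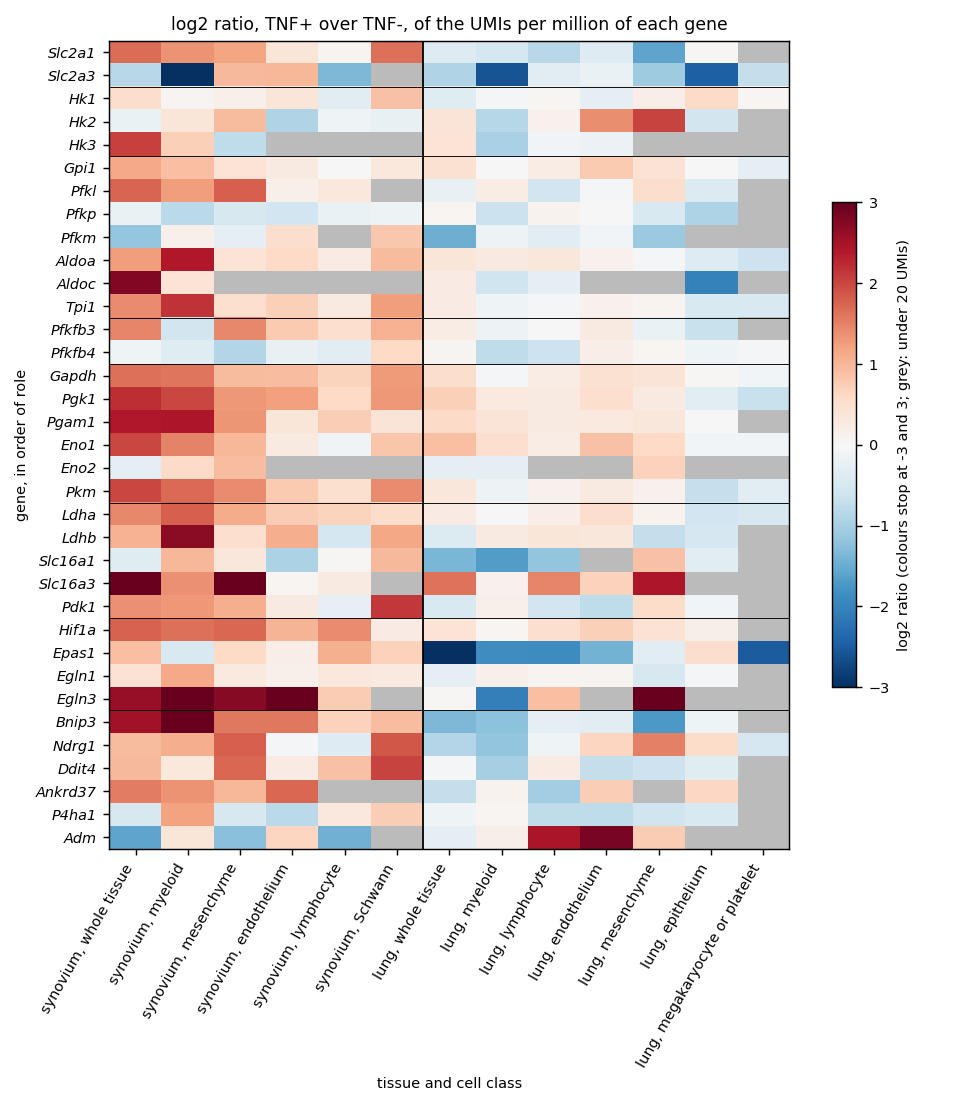
The log2 ratio of TNF+ over TNF- CPM for each gene (rows, in order of role) in each class of synovium (left of the line) and lung (right). Red is higher and blue lower in the TNF+ library, colours stop at -3 and 3, and grey marks under 20 UMIs. Red prevails in synovial myeloid cells and mesenchyme, where 21 and 15 genes are at least 2-fold higher, and Slc2a3 stands out in blue in the myeloid column.

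Clusters that both libraries filled give the comparison with the least change of cell make-up. In the synovium 15 clusters held at least 20 cells of each library, and the sum of the 35 genes was higher in TNF+ cells in 15 of 15, with log2 ratios from 0.14 to 0.71 and a median of 0.43. Pkm and Ldha were each above 0 in 15 of 15 of these clusters, with median log2 ratios of 0.69 and 0.61. Gapdh was above 0 in 14 of 15 (median 0.74) and Hif1a in 14 of 15 (median 0.88). Bnip3 was above 0 in 9 of the 9 clusters where it was counted, with a median of 1.37, and Egln3 in 5 of 5, with a median of 1.18. The counting interval lay above 0 in 7 of these 9 for Bnip3 and in 2 of these 5 for Egln3. Clusters with under 20 UMIs of a gene were left out, among them cluster 9 for Egln3, where it was about level. For genes rare in TNF- cells such counts thus favour clusters with high TNF+ levels. Pgk1, Pgam1 and Aldoa were above 0 in 12 of 15. Hk2 was above 0 in 9 of 12 (median 0.67), Slc16a3 in 9 of 10 (0.64), Pfkfb3 in 11 of 15 (0.52), Slc2a1 in 11 of 14 (0.46), Slc16a1 in 8 of 10 (0.43) and Tpi1 in 10 of 15 (0.31). Among the members that were lower or level, Slc2a3 was above 0 in 3 of 9 (median -0.96), Ldhb in 3 of 7 (-0.46), Adm in 3 of 9 (-0.37), Pfkp in 4 of 15 (median -0.36), P4ha1 in 3 of 13 (-0.35), Pfkfb4 in 1 of 10 (-0.70), and Gpi1 and Eno1 had medians of -0.04 and 0.07. The clusters share their 2 libraries, so their number says nothing about mice. Over all genes counted in a cluster, 36.8% to 63.5% were above 0.

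**Figure D4:**
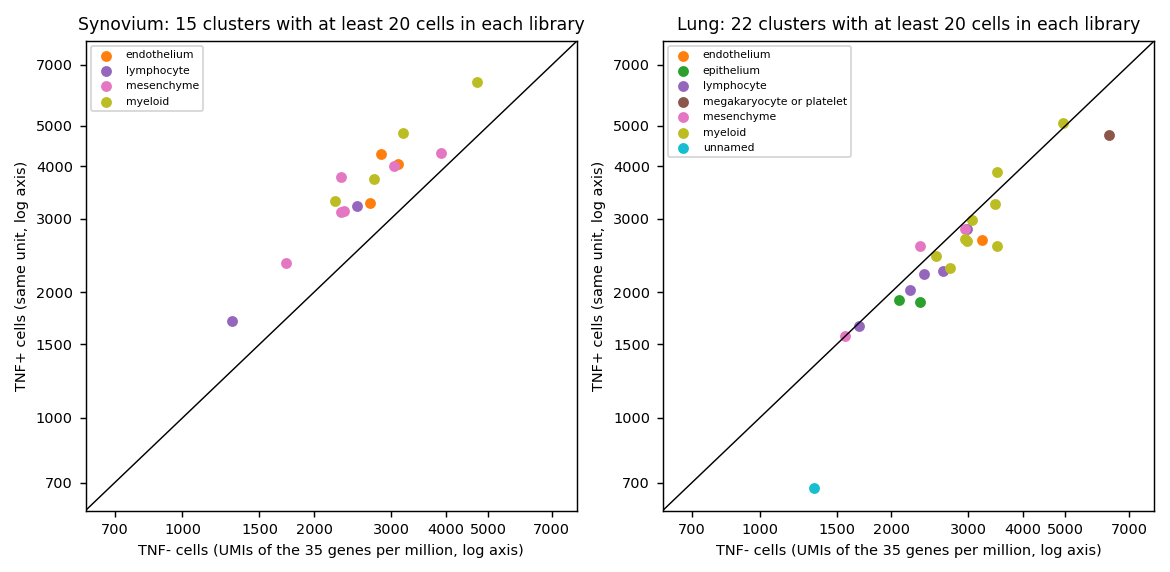
Summed CPM of the 35 genes in TNF- cells (x) and TNF+ cells (y) of each cluster with at least 20 cells in both libraries, both axes logarithmic. Points are clusters coloured by class, and the line marks equal levels. The 15 synovial points lie above the line, and 13 of the 22 lung points lie under it beyond their counting interval.

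Signs of tissue handling and of foreign RNA were set beside these values. A list of 26 genes of dissociation and stress, such as Fos and Egr1, summed to 12979 CPM against 7782 CPM in TNF- and TNF+ synovial myeloid cells, to 23834 and 14495 CPM in mesenchyme, and to 25179 and 20146 CPM in endothelium. The sum of the stress genes was thus lower in these TNF+ classes, in which the sum of the 35 genes was higher. By gene, the median log2 ratio of the stress list was -1.03 in myeloid cells, -0.17 in mesenchyme and -0.29 in endothelium. Over all genes it was -0.14, -0.27 and -0.12, so in mesenchyme the typical stress gene was not lower than other genes. The part of the stress genes in the result was not tested. Of 25 macrophage or monocyte markers, 22 were detected in TNF- and 21 in TNF+ synovial mesenchyme, at a summed 426 and 407 CPM, with Marco and Siglecf at 0 in both, against 9156 and 27854 CPM in myeloid cells. In endothelium 20 and 22 of them were detected, at 302 and 551 CPM, with Marco and Siglecf at 0 in both. In lymphocytes 22 and 16 were detected, at 804 and 427 CPM, and in Schwann-like cells 18 and 19, at 916 and 1262 CPM, with Marco at 0 in each of these. Their part in the values of these 4 classes was not tested.

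In the lung the myeloid class had 1097 TNF- and 5031 TNF+ cells and a summed level of 3302 and 3060 CPM (log2 ratio -0.11, -0.13 to -0.09). None of the 35 genes was at least 2-fold higher and 7 were at least 2-fold lower, against 4.04% and 16.6% of all genes. The median log2 ratio was -0.13 over the 35 and -0.12 over all genes. Slc2a3 was at 143 CPM against 23.9 CPM in TNF- and TNF+ cells (log2 ratio -2.58, -2.69 to -2.47). By type it was at 806 and 496 CPM in neutrophils and at 10.6 and 6.75 CPM in macrophages or monocytes. Neutrophils were 303 of the 1097 TNF- and 179 of the 5031 TNF+ myeloid cells, while macrophage-like cluster 2 held 27 TNF- and 2524 TNF+ cells. Slc2a3 was lower in the TNF+ library in both of these types, and the type in which it was highest was a smaller part of the TNF+ class.

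Egln3 was at 11.7 and 2.85 CPM in lung myeloid cells (log2 ratio -2.04), Bnip3 at 16.1 and 6.84 CPM (-1.24) and Ndrg1 at 27 and 11.9 CPM (-1.18). Slc16a1 was at 7.78 and 2.45 CPM (-1.66), and Ddit4 at 41.6 and 20.7 CPM (-1.0). Bnip3 and Egln3, which had the largest gaps in synovial myeloid cells, thus stood on the other side over the whole lung myeloid class, a difference that was not tested. Gapdh was at 603 and 584 CPM (log2 ratio -0.047), Ldha at 195 and 192 (-0.020), Pkm at 338 and 305 (-0.15) and Hif1a at 94.3 and 98.8 CPM (0.067). Slc2a1 was at 58.1 and 40 CPM (-0.54). Eno1 had the highest log2 ratio, 0.51. Averaged over the shared clusters, the log2 ratio of the sum was -0.04 and 1 gene was at least 2-fold higher, and none of Egln3 (-0.19), Bnip3 (-0.24), Ndrg1 (0.011), Slc2a3 (-0.60) and Slc16a1 (-0.95) was still 2-fold lower. Without the clusters with over 90% TNF+ cells Egln3 was at -1.76 and Bnip3 at -0.71. The stress genes summed to 9303 and 6589 CPM in these cells.

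Lung lymphocytes were many and of similar depth in both libraries (2443 and 3093 cells, median 7929 and 8376 UMIs). Their sum was 2085 and 2142 CPM (log2 ratio 0.04, 0.02 to 0.06). Of 34 counted genes 2 were at least 2-fold higher and 3 lower, against 6.09% and 8.20% of all genes. Adm was at 1.06 CPM against 5.75 CPM in TNF- and TNF+ lymphocytes (log2 ratio 2.44, 1.79 to 3.15). Of these UMIs, 20 of 22 and 152 of 159 came from B or plasma cells, where Adm was at 2.06 and 12.8 CPM. Slc16a3 was at 2.27 and 6.30 CPM (1.47). Lower in the TNF+ library were Slc16a1, at 41.1 and 18.2 CPM (-1.18), Ankrd37, at 17.7 and 8.65 CPM (-1.03), and Epas1, at 39.5 and 10.7 CPM (-1.88). Egln3 was at 4.97 and 9.34 CPM (0.91). Gapdh, Pkm, Ldha and Hif1a had log2 ratios of 0.23, 0.13, 0.21 and 0.52, and Slc2a1 one of -0.83. The count of 2 higher genes was 1 without the cells with the highest doublet scores and 1 in the average over shared clusters.

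Epas1 dominated the lung endothelium, the tissue where it is best known. It took 2965 of the 4309 CPM of the 35 genes in 1969 TNF- endothelial cells and 1113 of 2781 CPM in 407 TNF+ cells (log2 ratio -1.41, -1.48 to -1.34). Over the whole lung Epas1 was at 838 and 34.7 CPM (log2 ratio -4.59), where endothelium was 28.1% of TNF- and 4.44% of TNF+ cells. Fewer endothelial cells and less Epas1 per cell both lower a whole-tissue value. The TNF+ endothelial cells were shallow, with a median of 752 UMIs against 6498, and lay mostly in cluster 14 (18 TNF- and 276 TNF+ cells), whereas most TNF- cells lay in cluster 3 of the lung (1397 and 6). Cluster 16 was the only endothelial cluster with at least 20 cells in both libraries (258 TNF- and 25 TNF+ cells). In it the log2 ratio of Epas1 was -0.70 and no longer 2-fold. Without Epas1 the endothelial sum was 1344 CPM against 1668 CPM (log2 ratio 0.31, 0.25 to 0.37). Upper enzymes stood at 433 and 536 CPM and lower enzymes at 459.5 and 615 CPM, while the hexokinases, at 65 and 56.6 CPM, and the glucose carriers, at 11.6 and 9.22 CPM, had intervals of the ratio that held 0. Of 31 counted genes 2 were at least 2-fold higher, Hk2 and Adm, and 1 lower, against 10.2% and 8.95% of all genes. The Hk2 and Adm ratios rested on 17 and 5 and on 11 and 9 UMIs in TNF- and TNF+ cells.

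Epas1 was also at 37.9 CPM against 10.4 CPM in TNF- and TNF+ lung myeloid cells, and within 19 of 22 shared lung clusters its 95% interval lay below 0. Lymphocytes are not known for Epas1, yet it was at 39.5 and 10.7 CPM in them, beside 838 and 34.7 CPM in the libraries as a whole. The part of free RNA from endothelium in these lower levels was not tested. Within the 22 shared lung clusters the sum of the 35 genes was higher in 1, lower in 13 and with an interval that held 0 in 8, with log2 ratios from -0.98 to 0.15 and a median of -0.12. Without Epas1 it was above 0 in 5 of 22, with a median of -0.075. Hif1a was above 0 in 17 of 20 of these clusters, with a median of only 0.20, and P4ha1 in 4 of 19 with a median of -0.63.

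Lung mesenchyme and epithelium gave few UMIs in the TNF+ library. In mesenchyme (562 and 214 cells, median 6457.5 and 787 UMIs) the sum was 2070.25 and 2293 CPM, and 4 of 32 genes were higher and 4 lower, against 9.05% and 9.04%. Egln3 was at 7.68 and 65.5 CPM (3.09, 2.36 to 3.83) and Bnip3 at 47.1 and 14.2 CPM (-1.73, -2.96 to -0.72), the latter from 190 and 8 UMIs at -0.83 in the average over shared clusters and at 0.17 with cells thinned to 1000 UMIs. The 2 genes, which were both higher in TNF+ synovial mesenchyme, thus lay on opposite sides over the whole class here. Egln3 had only 4 and 5 UMIs with cells thinned to 1000 UMIs. Over the shared lung clusters of all classes, Egln3 was above 0 in 0 of the 5 in which it was counted. Ndrg1 was at 33.7 and 95.6 CPM (1.5). In epithelium (354 and 148 cells) the sum was 2129 and 1910.2 CPM, 0 of 29 genes were higher and 2 lower, against 11.6% and 7.17%, and Ldha was at 208 and 139 CPM (-0.59). Of the 25 macrophage or monocyte markers, 23 and 25 were detected in lung mesenchyme, at 460.3 CPM against 3799 CPM in the TNF- and the TNF+ library, 25 and 25 in lymphocytes, at 543 and 1825 CPM, 25 and 25 in endothelium, at 1389.6 and 2839 CPM, and 23 and 25 in epithelium, at 15161 and 15058 CPM, and their part in the lung values was not tested. Lung myeloid cells had 14898.5 and 18094.5 CPM of these markers. A summed level cannot tell foreign RNA from that of the epithelial cells themselves.

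Platelets and megakaryocytes of the lung had the highest summed level of any lung class, 6301 CPM in 212 TNF- and 4749.8 CPM in 119 TNF+ cells. Platelets lack a nucleus and are known to run on glucose. Pkm was at 1379.8 and 1088 CPM, Gapdh at 1175 and 1104 CPM and Slc2a3 at 813 and 495 CPM. Of 13 counted genes 0 were at least 2-fold higher and 1, Epas1, lower, against 8.55% and 9.79% of all genes. The macrophage or monocyte markers summed to 4320.5 and 11113 CPM in these cells, with Siglecf at 0 in both and 22 and 24 of 25 detected, and their part was not tested.

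The 35 genes differed in the class where they were highest, and many kept it in both libraries of a tissue. In the synovium Hk2 was highest in mesenchyme, Epas1, Hk1, Pfkfb3 and Ddit4 in endothelium, Ndrg1 and Ldhb in Schwann-like cells, and Slc16a3, Hk3, Pgk1, Pgam1 and Eno1 in myeloid cells, in both libraries. The lead of Hk2 in the TNF+ synovium was clear, at 698 CPM in mesenchyme against 179 CPM in myeloid cells, whereas that of P4ha1, at 124 against 114 CPM, lay within the counting intervals. Gapdh, Aldoa and Tpi1 were highest in muscle cells in the TNF- synovium and in myeloid cells in the TNF+ synovium, which held 23 muscle cells. In the lung Slc2a3, Hk1, Aldoa, Tpi1, Gapdh, Pkm and Ndrg1 were highest in platelets, Slc2a1, Pdk1 and Ddit4 in lymphocytes, and Pfkfb4, Ldhb and P4ha1 in epithelium, in both libraries. Eno2, the neuronal enolase, stayed at or under 12.4 CPM in every named class, and Pfkm, the muscle phosphofructokinase, at or under 19.1 CPM outside muscle.

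**Figure D5:**
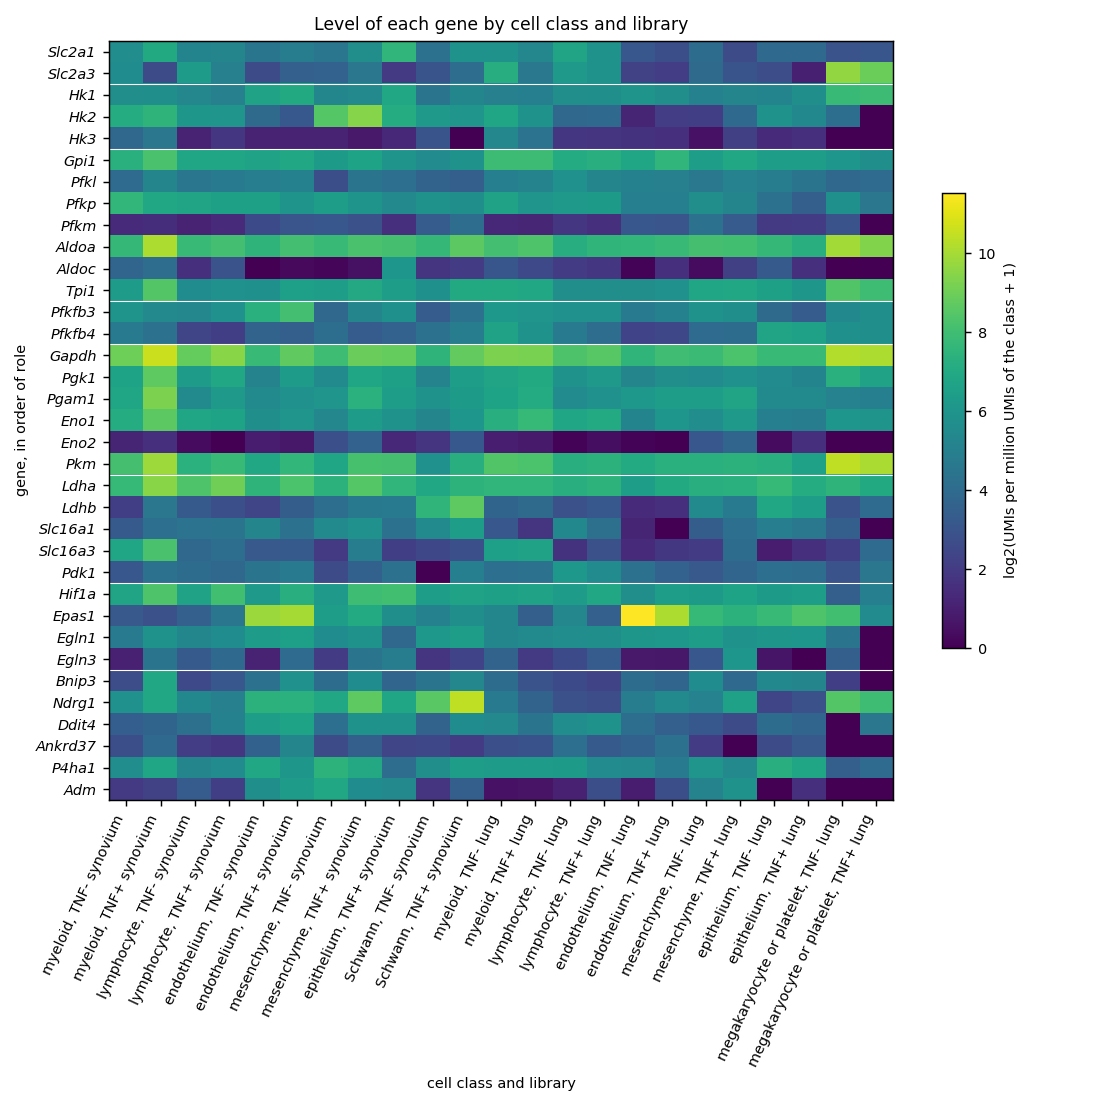
Level of each gene (rows, in order of role) in each cell class and library (columns), as log2 of CPM plus 1, yellow highest. Gapdh, Aldoa and Pkm are bright in TNF+ synovial myeloid cells and in lung platelets, Epas1 is bright in endothelium of both tissues, and Eno2 is dark throughout.

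Other genes of the pathways were taken from lists outside the 35. Their values are of whole classes, whose make-up differed between the libraries, and were not recomputed within clusters. Of 36 counted further HIF targets in synovial myeloid cells 15 were at least 2-fold higher and 5 lower, beside the 9.35% and 20% of all genes given above. Hmox1, the heme-degrading enzyme, was at 150.2 CPM against 4246 CPM in TNF- and TNF+ cells and Vegfa, the vessel growth factor, at 12.2 and 239 CPM, whereas Ppfia4 was at 29.4 and 3.74 CPM. In mesenchyme 12 of 44 were higher and 3 lower (9.28% and 21.2% of all genes), with Hmox1 at 82.2 and 815 CPM and Hilpda, a lipid droplet protein, at 8.66 and 46.9 CPM. In endothelium 6 of 38 were higher and 1 lower (7.48% and 10.2% of all genes), with Hmox1 at 26.9 and 1240.3 CPM. In lung myeloid cells 0 of 38 were higher and 11 lower (4.04% and 16.6% of all genes), with Vegfa at 12.9 and 3.58 CPM.

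The genes of pyruvate oxidation, its regulators included, and of the pentose phosphate pathway were mostly under 2-fold in synovial myeloid cells, with 1 of 26 at least 2-fold higher and 1 lower (9.35% and 20% of all genes). The higher one was Pgd, which makes NADPH, at 60.8 and 281 CPM. In synovial mesenchyme 0 of 27 were higher and 3 lower (9.28% and 21.2% of all genes), among them Pdk2, a kinase that blocks pyruvate oxidation, at 7.43 and 1.88 CPM. Of 14 counted further regulators of HIF in synovial myeloid cells 0 passed 2-fold, and of 16 in mesenchyme 1 was higher, the ubiquitin ligase Siah2, at 24.4 and 78.8 CPM, and 1 lower, beside the same shares of all genes. In lung myeloid cells 0 of 15 passed 2-fold (4.04% and 16.6% of all genes). Isoenzymes and carriers outside the 35 were mostly rare, with 16 of 27 counted in synovial myeloid cells, of which 2 were higher and 1 lower (9.35% and 20% of all genes). In lung myeloid cells 20 of 27 were counted, of which 2 were higher and 3 lower (4.04% and 16.6% of all genes). The 2 higher ones there were Eno3, at 102.5 and 282 CPM (log2 ratio 1.46), and Slc2a6, at 30.8 and 80.9 CPM (1.39).

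On GRCm38 (GENCODE vM21), the genes the results turn on are all protein-coding and lie apart. Bnip3 is at chromosome 7, 138890836 to 138909519, minus strand, Egln3 at chromosome 12, 54178981 to 54203860, minus strand, and Hif1a at chromosome 12, 73901375 to 73947530, plus strand. Slc2a3 is at chromosome 6, 122727809 to 122801640, minus strand, Epas1 at chromosome 17, 86753700 to 86833410, plus strand, and Gapdh at chromosome 6, 125161715 to 125166467, minus strand. Several members have near-identical processed copies or paralogs, among them Eno1 with Eno1b (730 UMIs against 48342) and Gapdh with Gapdhs (478 against 202064), so reads shared with copies may have been left uncounted. Aldoa is listed under 2 identifiers whose counts were added, the second with 26 of its UMIs.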

How the data were processed

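Lung and synovium of TNF+ and TNF- mice were profiled by droplet 3′ single-cell RNA sequencing. The deposited files hold the UMI counts of every gene in every barcode of a library, made by the authors with Cell Ranger 7.0.1 and the mm10 mouse genome according to the submitters' processing notes. Barcodes with 200 to 5000 genes and at most 20% mitochondrial UMIs were kept, the limits given in the methods of the study. Each tissue was scaled to 10000 UMIs per cell, and its 2 libraries were clustered together on 2000 variable genes, 30 principal components and 20 neighbours with the Leiden method at resolution 0.8 (python 3.11.15, numpy 2.4.6, scipy 1.17.1, scanpy 1.11.5, leidenalg 0.10.2, scikit-learn 1.9.0). Clusters were named from 284 markers of 17 cell types in 10 classes, where at least 5 markers were 2-fold above the other cells and in at least 10% of cells. Clusters with fewer stayed unnamed, as did those with more markers of another class than of their own among the top 10 genes, and those whose median depth times 3 was below that of their library with none of their markers among the top 10 (3 synovial and 2 lung clusters in all). Doublets were limited by the upper gene limit alone in the main values, and an alternative left out the barcodes with the highest Scrublet scores, at 0.8% per 1000 barcodes.

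For classes with at least 50 cells on both sides, the UMIs of a gene were summed over cells and set against all UMIs of the class. Ratios have conditional binomial intervals at 95%, levels have exact Poisson intervals at 95%, and both cover counting error only. A group at 0 was set to a floor of 3 UMIs. The scripts were tested on simulated data. Alternatives used no filter on cells, a stricter one (at least 500 genes, at most 10% mitochondrial UMIs), clustering per library, median-of-ratios scaling, equal weight for cells, cells thinned to 1000 UMIs, other minimum counts, and the sum without Gapdh. Values in full were given per comparison for the 6 genes with the largest log2 ratio in size among those with at least 100 UMIs and an interval that leaves out 0, and for Gapdh, Pkm, Ldha, Slc2a1 and Hif1a. Other genes were named where a count of few members, their role or their cell type called for it, after their values were seen. The 35 genes, the other pathway lists and the marker lists were chosen with earlier results of these data known. Promoter sequences are from RefSeq (GRCm38.p6) and gene positions from GENCODE vM21. Slc2a3, Epas1 and Ndrg1 had no promoter sequence in the table used here.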

Additional observations from a re-analysis of the deposited data

Results flagged for a closer look

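Some genes lay on opposite sides in the same class of the 2 tissues, and none of these differences was tested, since each tissue and genotype had 1 library. Bnip3 of myeloid cells had a log2 ratio (TNF+ to TNF-) of 4.36 in the synovium and -1.24 in the lung. Egln3 had 4.24 and -2.04, Ndrg1 had 1.08 and -1.18, and the lactate carrier Slc16a1 had 1.0 and -1.66. In mesenchyme Bnip3 had 1.59 in the synovium and -1.73 in the lung. These are values of whole classes. Averaged over clusters with at least 20 cells in both libraries, myeloid Bnip3 had 1.60 and -0.24 and Egln3 1.29 and -0.19. Ndrg1 had 0.62 and 0.011, Slc16a1 1.01 and -0.95, and mesenchymal Bnip3 1.24 and -0.83. None of the lung values was then 2-fold lower, and that of Ndrg1 was above 0. For myeloid cells this average included lung cluster 2, which held only 27 TNF- against 2524 TNF+ cells. Without the clusters with over 90% TNF+ cells, lung myeloid Egln3 was at -1.76, still 2-fold lower, and Bnip3 at -0.71.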

How the results depend on the processing

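The averages over shared clusters, the removal of clusters with over 90% TNF+ cells and the sum without Epas1 were added after the data were seen, and the other alternatives were planned. Of 1109 recomputed ratios of single genes that were at least 2-fold in the main values, whatever their UMI count, 1082 kept their sign and 27 turned or came to 0. The cause of the changes was not tested. Shares of all genes past 2-fold were computed for the main values and for single clusters, and not for the counts under the alternatives. No paired analysis was possible because each group was 1 library of pooled mice, and for the same reason no replicate was left out. Shallow cells limit the lung endothelium, mesenchyme and platelets of the TNF+ library most.

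For synovial myeloid cells (sum 1.52, 21 genes at least 2-fold higher) the log2 ratio of the sum was 1.66 with median-of-ratios scaling, 1.39 with cells weighted equally, 1.51 without Gapdh, 1.41 with cells thinned to 1000 UMIs, 0.52 within clusters (4 genes) and 0.62 without clusters of over 90% TNF+ cells (6 genes). For synovial mesenchyme (0.85, 15 genes) it was 1.07 with no filter on cells, 0.88 with a stricter filter, 1.12 with median-of-ratios scaling, 0.65 with cells weighted equally, 0.57 thinned, 0.49 within clusters (3 genes) and 0.55 without TNF+ clusters (8 genes). For synovial endothelium (0.42, 7 genes) it was 0.47 with no filter, 0.59 with each library clustered by itself (13 genes), 0.54 with median-of-ratios scaling, 0.34 with cells weighted equally (4 genes), 0.37 without Gapdh, 0.51 without Epas1 and 0.32 thinned (4 genes), and a minimum of 100 UMIs left 4 genes. For lung lymphocytes (0.04, 2 genes) it was -0.16 with no filter, 0.0018 without Gapdh, 0.059 without Epas1, 0.010 thinned and -0.080 within clusters (1 gene), and removal of the highest Scrublet scores left 1 gene. For lung myeloid cells (-0.11, 0 genes) it was -0.056 with no filter (1 gene), -0.054 with each library clustered by itself, 0.0083 with median-of-ratios scaling, -0.22 with cells weighted equally (1 gene), -0.27 thinned, -0.039 within clusters (1 gene) and -0.077 without TNF+ clusters.

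Ratios on at least 20 UMIs that were at least 2-fold and changed side were, within clusters, Eno1 (-0.026), Ldhb (-0.36), Pdk1 (-0.49), Egln1 (-0.11) and Ankrd37 (-0.53) in synovial myeloid cells, Eno1 (-0.17) in synovial mesenchyme, Gpi1 (-0.012) and Eno1 (-0.042) in whole synovium, Ndrg1 (0.011) in lung myeloid cells and Slc16a3 (-0.090) in whole lung. Without TNF+ clusters they were Pdk1 (-0.054), Egln1 (-0.14) and Ankrd37 (-0.34) in synovial myeloid cells. Thinned, they were Pdk1 (-0.66) in Schwann-like cells, Aldoc (1.22) in lung epithelium, and Slc2a1 (2.17), Slc2a3 (1.58), Pfkm (0.85) and Bnip3 (0.17) in lung mesenchyme. Of these, Pdk1, Slc2a1, Slc2a3 and Pfkm had 0 UMIs in 1 library after thinning, so their values rest on the floor of 3 UMIs and give no direction. With each library clustered by itself they were Pfkfb3 (-0.34) in Schwann-like cells and Slc2a3 (0.090) in lung epithelium, with no filter Hk2 (-0.49) in lung endothelium, and with cells weighted equally Aldoa (-0.12) in whole synovium.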
